A study of Mus musculus with 6 samples.

Results

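Cholesterol synthesis and sterol regulation are described here through 31 genes, chosen by symbol from the 21937 gene symbols in the authors' deposited table. They are 8 enzymes from acetyl-CoA to squalene, 10 enzymes from squalene to cholesterol, 6 genes of sterol sensing and transcription, and 7 genes of sterol transport, storage and removal. All 31 were found, Msmo1 under its older symbol Sc4mol. Hmgcs1, which condenses acetyl units to HMG-CoA, sat at the lowest mean level of the table (log2 CPM -3.09), as did 4537 genes in all, and so has no usable fold change. The table does not show whether its transcripts were absent or were not counted, so this level is not read as a lack of expression. The other 30 members all lay above the median mean level of all genes, a log2 CPM of 1.71.

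Cholesterol is made from acetyl-CoA along the mevalonate pathway to squalene, which is then closed into a ring and trimmed to the sterol, and the brain is known to make most of its own supply because lipoproteins of the blood hardly enter it. The supply is kept in balance by the SREBP transcription factors, which the escort protein Scap carries out of the endoplasmic reticulum when sterols are low and which the Insig proteins hold back when sterols are high. Nuclear receptors of the LXR family respond to oxysterols and switch on genes that move sterol out of the cell.

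The study compared cells of the mouse embryonic cortex that had been given, by electroporation in the uterus at embryonic day 14.5, a plasmid for an shRNA against Nat14 (shNat14, 3 libraries) or for a control shRNA (NTC, 3 libraries). Brains were taken at embryonic day 18.5 and live GFP-positive cells of the dissected cortex were sorted for RNA sequencing. Both groups went through electroporation, dissociation and the sort, and the labels name no strain, no promoter and no number of embryos per library. The data are the authors' own comparison, with no values per library, so neither the spread between libraries nor their depth can be given, and the p-values reflect only how these libraries varied, which may be technical variation. Fold changes are read as shNat14 relative to NTC from Nat14, the gene the shRNA targets, whose value is negative, since the columns do not name a direction. Nat14 itself had a log2 fold change of -3.31 per the authors' deposited table (adjusted p = 1.2e-08).

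None of the 30 measured members was called at adjusted p under 0.05 per the authors' deposited table, where 0.155% of all genes were called. The smallest adjusted p among them was 0.659. At unadjusted p under 0.05 the members held 1 gene lower in shNat14, the mevalonate kinase gene Mvk, and 2 genes higher, the sterol sensor gene Insig1 and the sterol exporter gene Abcg1. Of the 10969 genes whose mean level reached the median, 2.12% were lower and 3.78% were higher at that threshold per the authors' deposited table, so that 3 of 30 members (10%) stand beside 5.91% of genes in either direction. With 3 genes in the count, the members' share is near that of genes at large.

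Fold changes of the members were small. In the authors' deposited table they ran from -1.20 to 0.74 on the log2 scale, which is 43.5% to 167% of the NTC level, and 23 of the 30 lay within 0.5 of no change. The median absolute log2 fold change was 0.24, against 0.25 for all genes that reached the median level. The signed median was -0.13, with 20 members negative and 10 positive, whereas all genes that reached the median level had a median of 0.03 and 46.4% negative values per the authors' deposited table. These are counts and medians of a chosen list and carry no test. In all, 26 members lay between the 5th and 95th percentiles of those genes (-0.63 and 0.74), and Mvk, Mvd and Dhcr7 lay below and Insig1 just above that range.

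**Figure D1:**
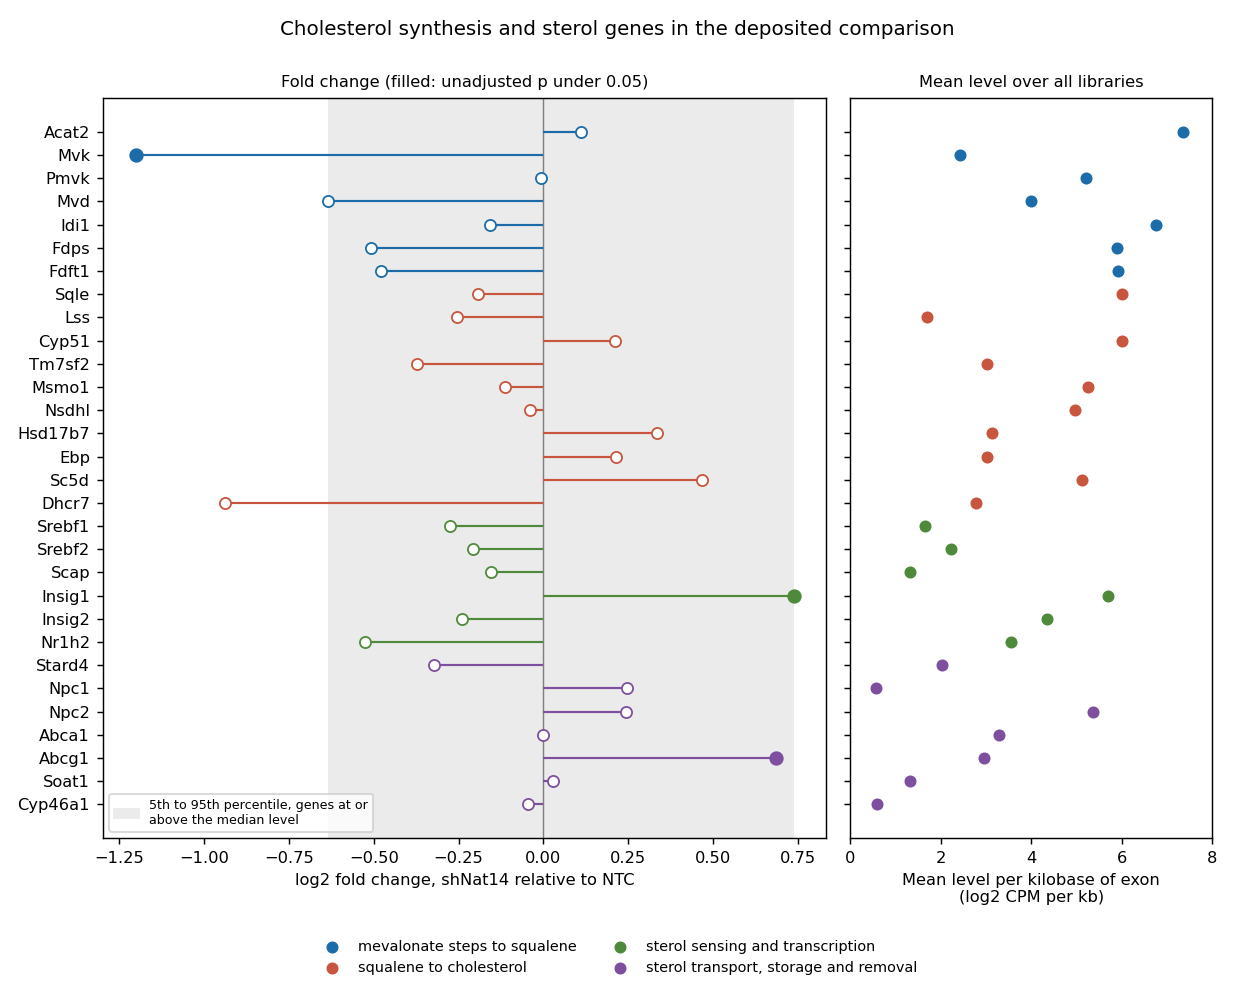
Left, log2 fold change of each of the 30 measured members in pathway order, with filled points for unadjusted p under 0.05 and a grey band from the 5th to the 95th percentile of genes at or above the median level. Right, their mean level over all libraries as log2 CPM per kilobase of exon; Mvk at -1.20 and Insig1 at 0.74 are the ends of the range, and neither was called after adjustment.

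The enzymes from acetyl-CoA to squalene leaned lowest of the role groups, with a median log2 fold change of -0.48 and 6 of 7 measured genes negative per the authors' deposited table. Mvk, which adds a phosphate to mevalonate, stood at -1.20 (p = 0.00998, adjusted p = 0.659) at a mean log2 CPM of 3.84 per the authors' deposited table. This is 43.5% of the NTC level, and it is the lowest value of any member. Mvd, the decarboxylase that makes isopentenyl diphosphate, stood at -0.63 (p = 0.128) per the authors' deposited table. Pmvk, the kinase that acts between Mvk and Mvd, did not share these values and stood at -0.01 per the authors' deposited table (p = 0.978).

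Lower down the same branch, Fdps and Fdft1 had nearly equal fold changes. Fdps, which builds farnesyl diphosphate, stood at -0.51 (p = 0.0666) and Fdft1, the squalene synthase that commits the pathway to sterols, at -0.48 (p = 0.0527) per the authors' deposited table. Both were abundant, at mean log2 CPM of 7.96 and 7.99. The remaining enzymes of this branch stayed near no change per the authors' deposited table, the isomerase gene Idi1 at -0.16 (p = 0.551) and the thiolase gene Acat2, which starts the pathway, at 0.11 (p = 0.726). Acat3, a close relative of Acat2 with which reads could be shared, stood at 1.68 at a mean log2 CPM of 0.30 per the authors' deposited table (p = 0.0554).

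The 10 enzymes from squalene to cholesterol were split, with 6 negative and 4 positive fold changes, a median of -0.08 and none at unadjusted p under 0.05 per the authors' deposited table. Dhcr7, the reductase of the last step whose loss causes Smith-Lemli-Opitz syndrome in humans, was the exception in size, at -0.94 or 52.2% of the NTC level (p = 0.0564, adjusted p = 1) per the authors' deposited table. Sc5d, the desaturase that makes the substrate of Dhcr7, stood on the other side of no change at 0.47 per the authors' deposited table (p = 0.145). The difference between these neighbouring steps cannot be tested without values per library.

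The other enzymes of this branch covered a narrow range. Sqle, the epoxidase that is a rate-limiting step of the pathway, stood at -0.19 (p = 0.47) and Lss, which closes the ring to lanosterol, at -0.25 (p = 0.542) per the authors' deposited table. Cyp51, the lanosterol demethylase, was at 0.21 (p = 0.44), and Tm7sf2, a sterol reductase acting on its product, at -0.37 (p = 0.265) per the authors' deposited table. The enzymes that remove the methyl groups next to the sterol's hydroxyl lay within 0.5 of no change. Msmo1 stood at -0.11 (p = 0.661), Nsdhl at -0.04 (p = 0.872) and Hsd17b7 at 0.34 (p = 0.362) per the authors' deposited table. Ebp, the sterol isomerase that follows them, stood at 0.21 per the authors' deposited table (p = 0.591).

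Sterol sensing was led by Insig1. This gene, which is itself switched on by SREBP and whose protein retains Scap in the endoplasmic reticulum, stood at 0.74 or 167% of the NTC level (p = 0.0124, adjusted p = 0.701) at a mean log2 CPM of 7.32 per the authors' deposited table. Its paralog Insig2 stood at -0.24 per the authors' deposited table (p = 0.367). The 5 members of this group other than Insig1 were all negative per the authors' deposited table, none at unadjusted p under 0.05. Srebf2, the SREBP gene most tied to cholesterol, was at -0.21 (p = 0.689), Srebf1, more tied to fatty acids, at -0.28 (p = 0.569) and Scap at -0.15 (p = 0.685) per the authors' deposited table. Nr1h2, which encodes LXR beta, stood at -0.52 per the authors' deposited table (p = 0.141).

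Insig1 and the synthesis enzymes are known as joint targets of SREBP, and their values here are set side by side. Insig1 was at 0.74, whereas the 17 measured synthesis enzymes had a median log2 fold change of -0.16, with 12 negative and 5 positive values and Mvk alone past unadjusted p of 0.05, per the authors' deposited table. The difference between Insig1 and the enzymes was not tested.

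Genes of transport, storage and removal had a median log2 fold change of 0.03 per the authors' deposited table, with 3 negative and 4 positive values. Abca1, at -1.86e-06, is counted among the negative values here and over all members. Abcg1, an LXR target that passes cholesterol to lipoprotein particles, stood at 0.69 or 161% of the NTC level (p = 0.0407, adjusted p = 0.985) per the authors' deposited table. Abca1, the other well-known LXR target of this group and the exporter to lipid-poor apolipoproteins, was level between the groups at a log2 fold change of -1.86e-06 (p = 1) and a mean log2 CPM of 6.67 per the authors' deposited table. An exact p of 1 was shared by 57 genes at or above the median level.

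The lysosomal pair Npc1 and Npc2, which hand cholesterol out of the lysosome and are mutated in Niemann-Pick disease type C, stood at nearly the same value, 0.25 (p = 0.505) and 0.24 (p = 0.436) per the authors' deposited table. Stard4, a cytosolic sterol carrier, was at -0.32 (p = 0.378), and Soat1, which esterifies cholesterol for storage, was at 0.03 (p = 0.943) per the authors' deposited table. Cyp46a1, the neuronal hydroxylase that makes the oxysterol by which the adult brain sheds cholesterol, had the lowest level of the measured members before correction for length, a mean log2 CPM of 2.30, and stood at -0.04 per the authors' deposited table (p = 0.963).

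Mean levels were put on a common footing by the length of each gene's exons. On this scale of log2 CPM per kilobase, computed from the authors' deposited table, Acat2 (7.35) and Idi1 (6.77) were the most abundant members, followed by Cyp51 (6.01), Sqle (5.99), Fdft1 (5.91), Fdps (5.89) and Insig1 (5.69). Mvk (2.42) and Dhcr7 (2.78), which had the lowest fold changes, were less abundant per kilobase than Fdft1 and Fdps. The lowest levels were those of Npc1 (0.57) and Cyp46a1 (0.59). The length counts every annotated exon base of a gene, 11.3 kilobases for Npc1, and can exceed that of the transcripts present. Before this division Npc1 stood at a mean log2 CPM of 4.07, above Mvk at 3.84. The table gives no spread for the levels, so neighbours in this order cannot be told apart, and the exon lengths come from GENCODE gene models that may differ from those the authors used.

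The members' fold changes were also split by level, with no test. Of the 15 members with a mean level of at least 50 CPM, 9 were negative and the median log2 fold change was -0.01 per the authors' deposited table, while over all 30 members it was -0.13. The lowest fold changes, those of Mvk, Dhcr7 and Mvd, lay at mean log2 CPM of 3.84, 5.32 and 4.88, below this limit.

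**Figure D2:**
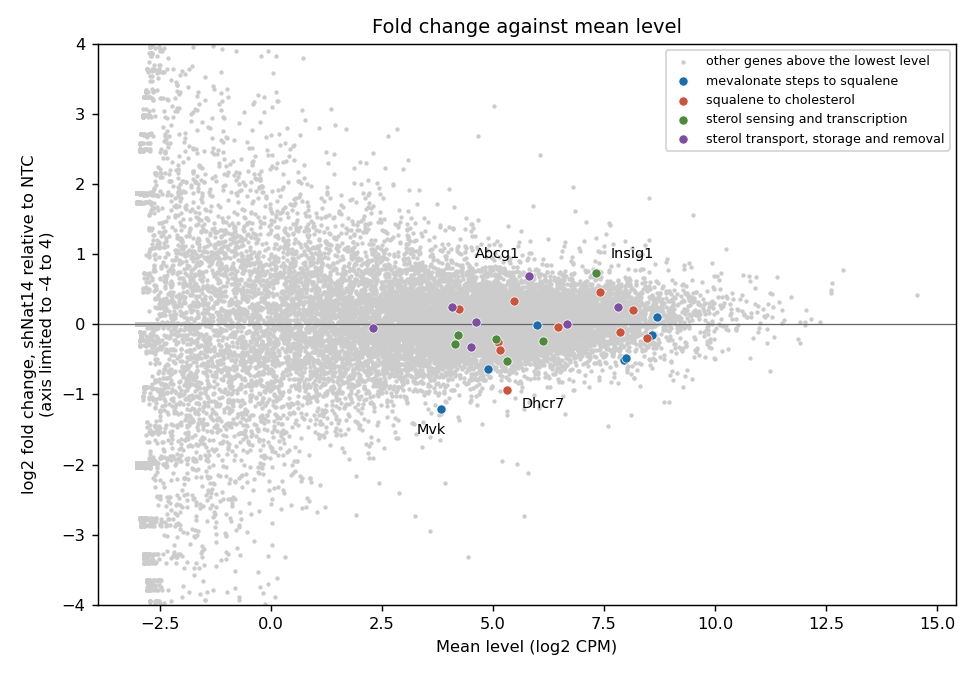
Log2 fold change (shNat14 relative to NTC) against mean level (log2 CPM) for genes above the lowest level in grey and for the 30 measured members in colour by role. The fold change axis is cut, so the most extreme grey genes are not drawn. The members lie within the cloud of other genes. Mvk (-1.20) and Dhcr7 (-0.94) are the lowest of them and Insig1 (0.74) and Abcg1 (0.69) the highest.

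Promoters were examined for short motifs of the factors known to act on sterol genes, in windows of 250 bases before to 50 bases after the start of the gene from RefSeq (build GRCm38.p6). Of the 31 members, 25 had an entry, 33 windows in all, some of them overlapping windows of 1 gene. The other 6 members, among them Abcg1, had no entry and were not searched. The bases just after the start were found in a GENCODE transcript of the gene for 19 of these 25 genes. Both strands were searched, and a gene counts once when any of its windows holds the motif. The sterol regulatory element TCACNCCAC, bound by SREBP, was present in 1 of 25 member genes, Hmgcs1, against 1.44% of 27025 genes with an entry and 1.4% of the 7859 of them that lay at or above the median level. With at most 1 mismatch outside the N it was present in 10 of 25 (40.0%), against 26.7% and 29.3%.

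Motifs of other factors that act on these promoters are shorter, so each is read only against its own share of other genes. CCAAT, the box of NF-Y, was present in 21 of 25 member genes (84.0%), against 41.1% of all genes and 44.1% of those at or above the median level. GGGCGG, the box of Sp1, was present in 23 of 25 (92.0%), against 38.2% and 70.9%. CACGTG, the E-box, was present in 6 of 25 (24.0%), against 8.09% and 12%. Counted by window, the NF-Y box was in 22 of 33, the Sp1 box in 27 and the E-box in 7. A gene with several windows has more chances of a match, and the share of windows over all genes was not computed. The LXR repeat, AGGTCA followed after 4 bases by another AGGTCA, was present in 0 of 25, against 0.0148% of all genes. None of these motifs contains another, although neighbouring matches can share bases, and a match describes only the letters in the window.

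**Figure D3:**
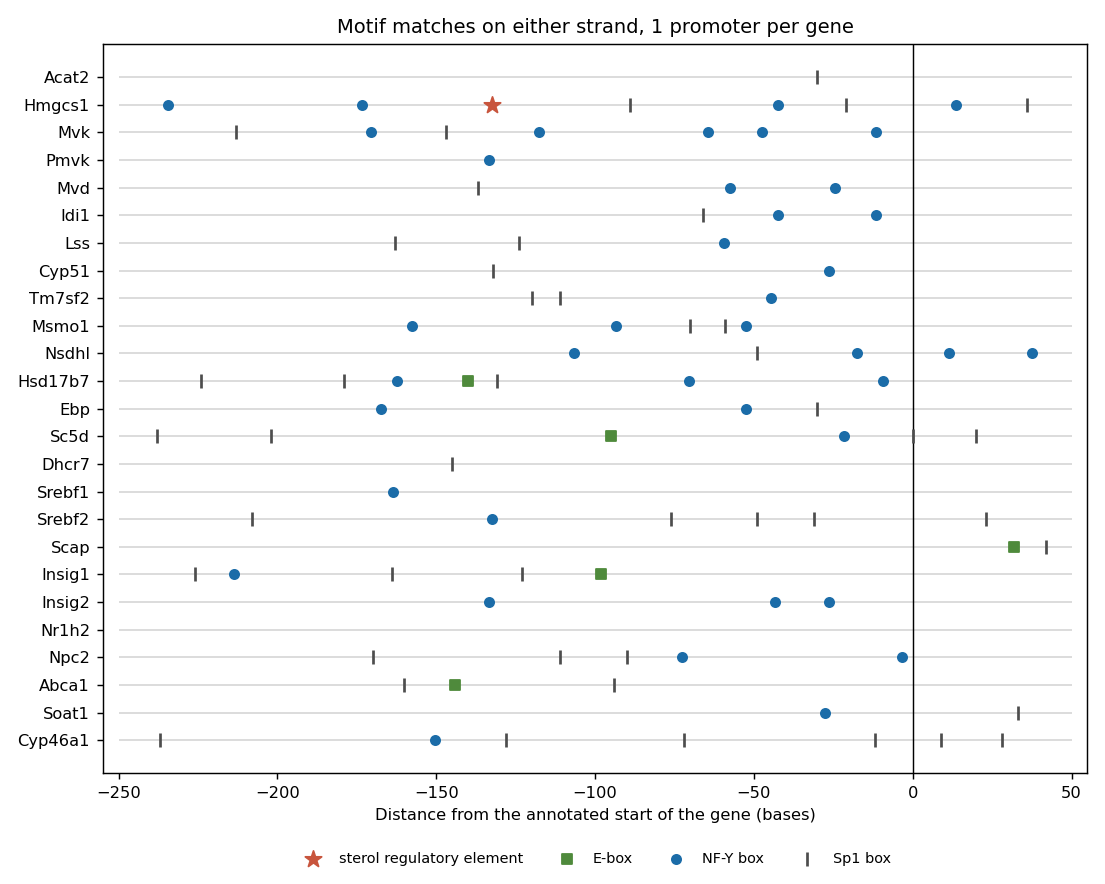
Matches to the sterol regulatory element, the E-box, the NF-Y box and the Sp1 box on either strand, plotted by distance in bases from the annotated start, for the RefSeq window of each of 25 member genes (the window listed first where a gene has several). Mvk carries 5 NF-Y boxes, Insig1 carries an E-box with 1 NF-Y box, and Hmgcs1 is the only gene with the exact sterol regulatory element.

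The stretches before the start are shown for the members with the largest fold changes among those with an entry, Mvk, Dhcr7 and Insig1, and for Hmgcs1, which holds the exact sterol regulatory element. Each is on the plus strand of GRCm38.p6, 5′ to 3′, limited to bases outside annotated exons, with matches on either strand to the sterol regulatory element, the E-box, the NF-Y box or the Sp1 box in capitals. They lie at chr5:114444061-114444268 for Mvk, chr7:143822917-143823144 for Dhcr7, chr5:28071162-28071362 for Insig1 and chr13:119690101-119690350 for Hmgcs1.
Mvk: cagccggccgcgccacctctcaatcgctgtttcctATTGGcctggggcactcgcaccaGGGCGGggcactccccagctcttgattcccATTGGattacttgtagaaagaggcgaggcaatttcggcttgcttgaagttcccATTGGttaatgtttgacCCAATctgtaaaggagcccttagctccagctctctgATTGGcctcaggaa
Dhcr7: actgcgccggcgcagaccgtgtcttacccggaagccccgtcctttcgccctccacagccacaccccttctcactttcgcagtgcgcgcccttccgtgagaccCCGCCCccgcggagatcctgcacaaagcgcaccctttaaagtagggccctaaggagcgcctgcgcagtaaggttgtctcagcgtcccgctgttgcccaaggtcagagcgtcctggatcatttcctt
Insig1: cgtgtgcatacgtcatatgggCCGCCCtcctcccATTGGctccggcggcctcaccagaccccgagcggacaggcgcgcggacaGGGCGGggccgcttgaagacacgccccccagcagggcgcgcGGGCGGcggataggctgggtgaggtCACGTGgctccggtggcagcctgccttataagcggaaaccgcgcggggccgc
Hmgcs1: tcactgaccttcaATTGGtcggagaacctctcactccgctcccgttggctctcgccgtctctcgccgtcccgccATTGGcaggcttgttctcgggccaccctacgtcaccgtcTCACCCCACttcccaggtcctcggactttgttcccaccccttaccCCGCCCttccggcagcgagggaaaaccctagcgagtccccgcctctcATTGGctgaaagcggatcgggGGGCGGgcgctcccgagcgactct
The Mvk stretch holds NF-Y boxes that start 173, 120, 67, 50 and 14 bases before the gene's start and a Sp1 box at 150. The Insig1 stretch holds an E-box at 101, a NF-Y box at 216 and Sp1 boxes at 229, 167 and 126. The Dhcr7 stretch shown has a single Sp1 box at 148. The other windows of Dhcr7 hold an E-box, NF-Y boxes, further Sp1 boxes and a sterol regulatory element with 1 mismatch. The Insig1 window also holds such an element with 1 mismatch, outside the stretch shown. Mvk and Insig1, the members with the lowest and the highest fold change, both carry NF-Y and Sp1 boxes. Most member genes do so too (21 of 25 for the NF-Y box and 23 of 25 for the Sp1 box), so their presence sets neither gene apart. By number, the Mvk window held 5 NF-Y boxes and the windows of Hmgcs1 and Nsdhl 4 each. The number of boxes per window was not compared with other genes or tested against the fold changes.

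Some members share their start region or their exons with other genes. Mvk and Mmab, an enzyme of vitamin B12 metabolism, are transcribed away from each other with starts 209 bases apart. Mmab stood at -0.20 per the authors' deposited table (p = 0.726), beside -1.20 for Mvk. Dhcr7 lies head to head with Nadsyn1, an enzyme of NAD synthesis, at 296 bases, and Nadsyn1 stood at -0.78 per the authors' deposited table (p = 0.361). Nsdhl pairs with the centrin gene Cetn2 (146 bases) and Npc2 with the iron-sulfur assembly gene Isca2 (99 bases). Nsdhl stood at -0.04 and Cetn2 at 0.13, and Npc2 at 0.24 and Isca2 at -0.09, per the authors' deposited table.

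Exons overlapped those of another annotated gene in 10 members, so their values carry a doubt if reads were shared or dropped there. The overlap covered 26.7% of the exon bases of Fdps, 18.3% of Fdft1, which meets the cathepsin gene Ctsb, 13.2% of Scap and 12.1% of both Hmgcs1 and Tm7sf2. Ctsb stood at -0.29 per the authors' deposited table (p = 0.287). Mvk, Dhcr7, Insig1 and Abcg1 had no such overlap. Over the 21 measured members without overlap, 13 were negative and the median log2 fold change was -0.04 per the authors' deposited table.

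Other genes of sterol and related lipid metabolism were taken from 5 lists, 70 genes in all. None of them was called per the authors' deposited table, where 0.155% of all genes were called. At unadjusted p under 0.05, 2 of the 70 were lower and 0 higher. This is 2.86%, beside 6.35% of all genes above the lowest level in either direction. The median log2 fold change of the 70 genes was -0.13, close to that of the members. Of 7 other genes of sterol synthesis 4 were negative (median -0.11), none at unadjusted p under 0.05. Lbr, a nuclear envelope protein that is also a sterol reductase, stood at 0.34 (p = 0.217), Tmem97, a regulator of cholesterol known as the sigma-2 receptor, at -0.33 (p = 0.332), and Acat1, the mitochondrial thiolase and the gene of the list with the highest mean log2 CPM, at 0.05 (p = 0.831) per the authors' deposited table.

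Regulators and carriers outside the members leaned to negative values. Of 14 other sterol regulators 9 were negative (median -0.12) and none had an unadjusted p under 0.05 per the authors' deposited table. Rnf139, a ubiquitin ligase of the endoplasmic reticulum, was at 0.51 (p = 0.112), Aup1, which recruits ubiquitin enzymes there, at -0.52 (p = 0.131), and Ube2g2, the conjugating enzyme it recruits, at -0.36 (p = 0.321) per the authors' deposited table. Of 21 genes of sterol uptake, transport and oxysterols, 17 were negative (median -0.24) and 1 was lower at unadjusted p under 0.05. That gene was Cyp27a1, a sterol hydroxylase, at -5.20 (p = 0.0301) and a mean log2 CPM of -2.03 per the authors' deposited table, a level at which a fitted fold change bounds nothing. Ch25h, which makes an oxysterol and was named after its value was seen, stood at -2.19 (p = 0.169) at a similarly low mean log2 CPM of -1.95 per the authors' deposited table. Cyp7b1, an oxysterol hydroxylase, was at -0.67 (p = 0.117) and the lipoprotein receptor gene Lrp8 at 0.09 (p = 0.753) per the authors' deposited table.

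The branches beside sterol synthesis had medians of opposite sign. The 12 genes of the non-sterol isoprenoid branch, which leads to dolichol, ubiquinone and protein prenylation, had 8 positive and 4 negative fold changes, a median of 0.13 and none at unadjusted p under 0.05 per the authors' deposited table. Nus1, a subunit of the enzyme that makes dolichol chains, stood at 0.56 (p = 0.0654), Coq2, of ubiquinone synthesis, at 0.79 (p = 0.0711), and Ggps1, which makes geranylgeranyl diphosphate, at 0.12 (p = 0.66) per the authors' deposited table. The 16 genes of fatty acid synthesis, many of them targets of SREBP, had 11 negative values and a median of -0.19. Mid1ip1, an activator of acetyl-CoA carboxylase, stood at -0.77 (p = 0.0331) and the desaturase gene Scd2 at -0.49 (p = 0.0529) per the authors' deposited table. The differences between these lists were not tested.

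**Figure D4:**
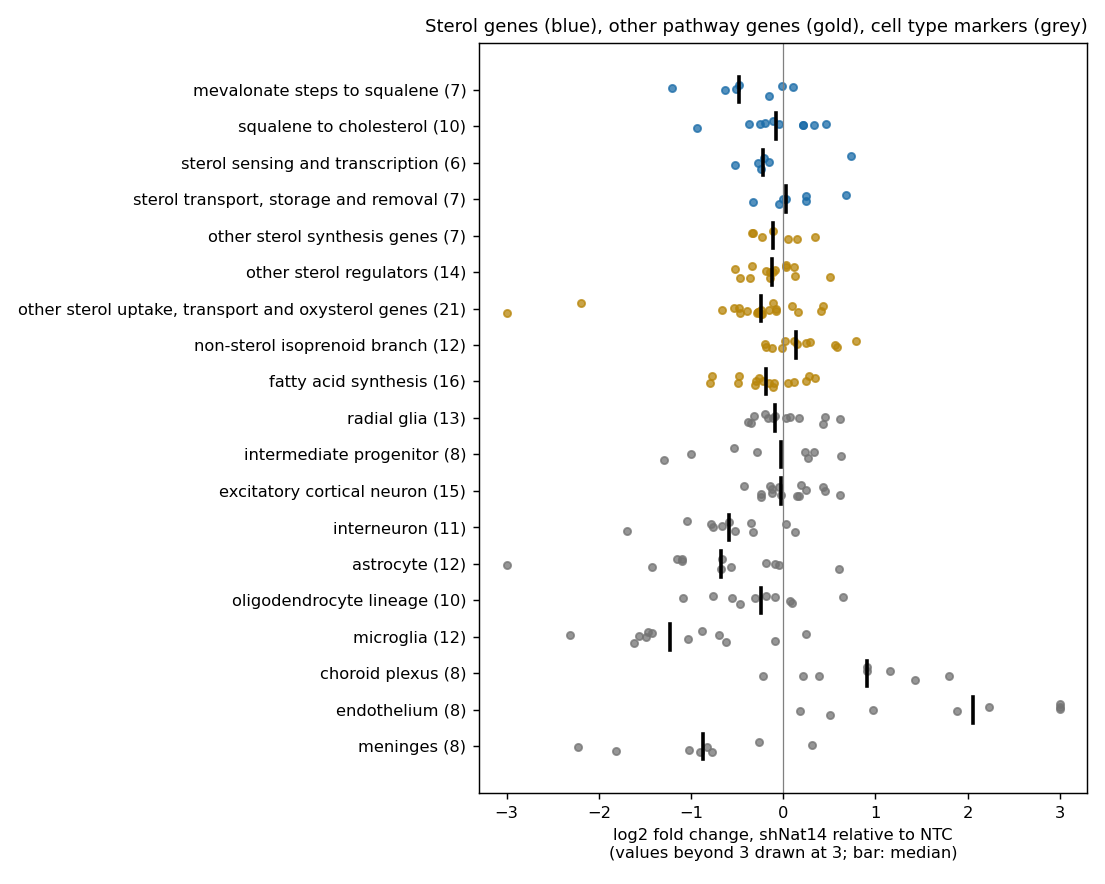
Log2 fold changes (shNat14 relative to NTC) of each gene above the lowest level in the 4 role groups of the members (blue), 5 lists of other pathway genes (gold) and 10 lists of cell type markers (grey), with the number of genes in parentheses, a bar at each median and values beyond 3 drawn at 3. Medians of the sterol and other pathway lists run from -0.48 (mevalonate group) to 0.13. Those of the marker lists run from -1.23 to 2.06, the latter for endothelium, whose genes mostly had low mean levels. Cyp27a1 (-5.20) and Ch25h (-2.19) lie far from the rest of their list.

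Markers of cell types were read beside these values, since glia are known to make more cholesterol than neurons in the mature brain. Excitatory cortical neuron genes were abundant, with Neurod6 at a mean log2 CPM of 11.30, and radial glia genes too, with Fabp7 at 10.97 per the authors' deposited table. The medians of these lists were -0.03 (8 of 15 negative) and -0.09 (7 of 13 negative), and intermediate progenitors had -0.03 (4 of 8 negative). At unadjusted p under 0.05 these lists held 1 gene, the intermediate progenitor gene Mfap4, at -1.29 (p = 0.000243, adjusted p = 0.0971) per the authors' deposited table. Astrocyte genes had a median of -0.67, with 11 of 12 negative, 5 lower at unadjusted p under 0.05 and 1 called lower, Agt, per the authors' deposited table. Apoe, the lipid carrier of that list, stood at -1.10 (p = 0.00021, adjusted p = 0.0864) per the authors' deposited table. Aldoc, the gene of the list with the highest mean log2 CPM, stood at -0.67 (p = 0.0321, adjusted p = 0.921) per the authors' deposited table.

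None of the genes in the remaining marker lists was called, and their medians lay on both sides of no change. The medians were -1.23 for microglia (11 of 12 negative, 5 lower at unadjusted p under 0.05) and -0.59 for interneurons (9 of 11, 5 lower). They were -0.87 for meninges (7 of 8, 3 lower) and -0.24 for the oligodendrocyte lineage (7 of 10, 1 lower) per the authors' deposited table. Of all genes above the lowest level, 6.35% had an unadjusted p under 0.05 in either direction. The median was 0.91 for choroid plexus (1 of 8 negative) and 2.06 for endothelium (0 of 8 negative, 2 higher at unadjusted p under 0.05). The endothelium list had a median mean log2 CPM of 0.13, with 1 of 8 genes at or above the median level of all genes. For choroid plexus these values were 1.93 and 4 of 8, and for microglia 1.86 and 7 of 12. Fold changes at low levels are poorly bounded. The levels of these markers in each group are not part of the comparison table, and their part in the values of the sterol genes was not tested. Fewer cells of a type and less RNA per cell cannot be told apart in sorted bulk samples.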

How the data were processed

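Groups (3 shNat14 and 3 NTC libraries) were taken from the sample titles. Per the file headers, the deposited table gives each gene symbol a logFC, a logCPM, a p-value and an FDR. These are read here as base 2 values, with the CPM averaged over libraries, since the headers give neither the base nor the averaging. The log2 values and p-values are used as the authors deposited them. SAMtools 0.1.19, HTSeq 0.5.4p1, TopHat2 2.0.8 and DESeq appear without their roles in the submitters' processing notes, with the build hg19, which is human although the symbols are mouse. The test, gene models, filters and prior count of the authors are not given in the sources used. Depth per library is unknown.

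The members and lists were chosen with earlier results of these data known. A gene counts as called where the deposited adjusted p is under 0.05. Benjamini-Hochberg values recomputed from the deposited p-values differed from the deposited ones by at most 4.05e-05. All 31 members are named, Nat14 as a check, and from each other pathway list the 2 genes with the smallest p and the most abundant one. The same rule covered 10 marker lists, which are given by counts with few names. Ch25h and the neighbouring genes were named after their values were seen. Of 175 list entries other than members, 173 matched by symbol and 2 by an older symbol. A few further entries are not reported here. Exon lengths, overlaps and head-to-head pairs (starts within 1000 bases) came from GENCODE M21 gene models (GRCm38), and promoters from RefSeq. The adjustment and the motif search were tested on simulated data. Python 3.11.15, numpy 2.4.6, pandas 2.3.3 and matplotlib 3.10.9 were used.

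Alternatives were other thresholds, adjustments, level filters and centrings.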

Additional observations from a re-analysis of the deposited data

How the results depend on the processing

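Of 25 values under alternative settings, 19 stayed within the limits set for them and 6 moved. The count of members called, 0 by the authors' test, was 0 at adjusted p under 0.1 and 0.01, after Bonferroni correction, and with the adjustment recomputed over genes above the lowest level or over those that reached the median, while 3 had an unadjusted p under 0.05. Members lower at unadjusted p numbered 4 at p under 0.1 and 0 at a mean level of at least 50 CPM, against 1. Members higher numbered 0 at p under 0.01, against 2. The shares of all genes at p under 0.1 and 0.01 were not computed, so these counts are not read as a trait of the members. Negative fold changes numbered 9 of 15 members at 50 CPM and 13 of 21 without members that overlap another gene (chosen after the data were seen), against 20 of 30, since fewer members enter. The median log2 fold change was -0.0085 at 50 CPM against -0.13, and the cause was not tested. No paired analysis was possible because values of single libraries are not part of the table, and no library could be left out for the same reason.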
